A study of Mus musculus with 10 samples.

Results

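The interleukins and their receptor chains were examined in bulk RNA sequencing of 10 mouse liver samples. The members are all rows of the deposited expression table with a symbol that begins with Il and a digit, 82 of 59408 gene models. By role they comprise 37 ligands, 37 receptor chains, 3 decoy receptors that bind a ligand without signalling, 3 antagonists or binding proteins, and 2 other rows. One of the other rows is Il1bos, an antisense transcript of Il1b, and the remaining one merges Il4i1, an enzyme gene, with Nup62 and Gm21948, so that its value cannot be given to Il4i1. A value of 10 or more normalised reads in at least 3 of the 10 libraries was reached by 49 members, among them 14 ligands, 31 receptor chains with decoys included, 2 antagonists and both other rows. All samples came from wild type C57BL/6 mice, and every liver was taken at day 35. The 4 controls were untreated, so none received adjuvant or glycolipid. In the mice of the 3 PBC samples a model of autoimmune primary biliary cholangitis was induced with 100 µg of 2-octynoic acid coupled to albumin, given into the peritoneum in complete Freund's adjuvant at day 0, with boosts in incomplete adjuvant at days 14 and 28. They also received 2 µg of α-galactosylceramide, a glycolipid known as an activator of NKT cells, into a vein with each of the first 2 injections. The mice of the 3 PSC samples modelled primary sclerosing cholangitis without autoimmunity and ate food with 0.089% of DDC (3,5-diethoxycarbonyl-1,4-dihydrocollidine) for 2 weeks, then normal food for 1 week and DDC for 1 more week.

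Interleukins are secreted proteins through which leukocytes, epithelia and stromal cells act on each other, and most bind receptors made of a ligand-specific chain and a chain shared with other interleukins. Members of the IL-1 family signal through receptors with a TIR domain to NF-kB, and their action is restrained by a receptor antagonist, a decoy receptor and a binding protein. The common gamma chain, gp130 and the common beta chain serve further groups of interleukins that signal through Janus kinases and STAT factors. In the liver, IL-6 and IL-1 are best known as the signals by which hepatocytes are driven to make acute phase proteins. IL-7 and IL-15 are known for the support of lymphocytes.

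The sequencing depth recovered from the files was 38272053 to 95422289 reads per library. The mitochondrial share was 13.7% in control 2 and no higher than 8.67% in the other libraries. The hepatocyte genes Alb, Ttr, Apoa1, Apob, Serpina1a and Cps1 together had 8410002 to 9665751 normalised reads in controls, 8584771 to 12769500 in PBC and 5599984 to 6717587 in PSC livers. Marker genes of other cells differed between the groups too. The 13 neutrophil genes summed to 479 to 6639 in controls, 39914 to 117821 in PBC and 9179 to 16654 in PSC livers. For 11 T cell genes the sums were 743 to 1259, 3003 to 3857 and 794 to 954, for 9 NK cell genes 747 to 1239, 2099 to 2497 and 1302 to 1576, and for 7 B cell genes 534 to 797, 1246 to 1733 and 309.5 to 448. The 9 monocyte and macrophage genes summed to 3864 to 10029 in controls, 15142 to 27296 in PBC and 24874 to 29491 in PSC livers, and 7 cholangiocyte genes to 7671 to 13202, 10129 to 13631 and 54062 to 94874. Most of the cholangiocyte sum was Spp1, at 7014 to 12348, 8905 to 12501 and 50963 to 91721. Krt19 had 100 to 234, 294 to 484 and 552 to 977, and Epcam 132 to 279, 67.1 to 156 and 368 to 639. Not every gene of a list moved with its sum. In bulk tissue, fewer cells of a type and less RNA per cell cannot be told apart.

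The starts of 6 genes are shown because these members kept a call against control under every alternative processing and have an entry among the RefSeq promoters of GRCm38.p6. Each line is the 250 bases before an annotated start, 5′ to 3′. Capitals mark matches, on either strand, to the STAT motif TTCNNNGAA, the C/EBP motif TTGCNNAA, the AP-1 motif TGANTCA or the NF-kB consensus. Il7 and Il27 also kept their calls and had no entry.
Il1r2, chr1:40085843-40086092 (+ strand): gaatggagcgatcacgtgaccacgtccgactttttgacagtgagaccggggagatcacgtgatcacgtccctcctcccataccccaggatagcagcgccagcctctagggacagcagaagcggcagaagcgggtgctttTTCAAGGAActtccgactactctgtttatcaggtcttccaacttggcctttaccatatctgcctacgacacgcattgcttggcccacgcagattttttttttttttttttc
Il1f9, chr2:24186226-24186475 (+ strand): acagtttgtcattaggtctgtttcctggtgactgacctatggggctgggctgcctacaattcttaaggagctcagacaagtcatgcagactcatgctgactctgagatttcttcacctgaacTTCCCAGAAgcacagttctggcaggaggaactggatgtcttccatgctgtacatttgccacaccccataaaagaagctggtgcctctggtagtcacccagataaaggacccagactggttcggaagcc
Il1rn, chr2:24336610-24336859 (+ strand): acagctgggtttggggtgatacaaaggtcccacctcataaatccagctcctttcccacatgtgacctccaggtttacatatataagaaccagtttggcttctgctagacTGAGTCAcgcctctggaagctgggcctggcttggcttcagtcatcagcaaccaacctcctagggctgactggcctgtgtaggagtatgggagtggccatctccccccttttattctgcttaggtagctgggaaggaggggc
Il18bp, chr7:102018233-102018482 (- strand): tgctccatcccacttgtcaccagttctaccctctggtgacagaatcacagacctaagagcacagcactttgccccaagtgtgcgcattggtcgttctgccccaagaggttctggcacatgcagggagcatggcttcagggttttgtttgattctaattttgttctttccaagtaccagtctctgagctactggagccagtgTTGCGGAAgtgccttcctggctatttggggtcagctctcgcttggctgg
Il2rg, chrX:101268256-101268505 (- strand): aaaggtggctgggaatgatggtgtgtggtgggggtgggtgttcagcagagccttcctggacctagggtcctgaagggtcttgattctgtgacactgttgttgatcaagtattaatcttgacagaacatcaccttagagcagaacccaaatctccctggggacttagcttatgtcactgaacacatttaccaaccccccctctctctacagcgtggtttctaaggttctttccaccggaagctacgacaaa
Il3ra, chr14:14346245-14346494 (+ strand): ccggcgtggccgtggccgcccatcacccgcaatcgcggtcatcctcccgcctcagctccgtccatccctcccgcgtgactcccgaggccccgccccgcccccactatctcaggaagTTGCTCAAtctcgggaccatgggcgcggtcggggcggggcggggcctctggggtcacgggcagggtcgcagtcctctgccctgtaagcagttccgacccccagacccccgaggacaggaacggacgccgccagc
The STAT motif was found in Il1r2, with its first base at -111 from the start, and in Il1f9, at -128. The C/EBP motif was found in Il18bp, at -49, and in Il3ra, at -134, and the AP-1 motif in Il1rn, at -141. Il2rg held none of these letters in this window. Among all 32851 promoter windows of the same length, 7.0% held the STAT, 9.6% the C/EBP, 6.7% the AP-1 and 3.9% the NF-kB motif. Of 65 member genes with an entry, counted over all their starts, 9 held the STAT, 14 the C/EBP, 14 the AP-1 and 5 the NF-kB motif. Of the 9 called members among them, 2, 2, 2 and 0 did. The windows printed for Il1r2 and Il18bp lie inside their deposited gene models. A match is a description of letters and not of a bound site. Il1rn has 3 annotated starts, of which the one printed lies at the beginning of the deposited gene model, and the others held no match.

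In PBC livers, 10 of the 49 tested members were higher than in controls and 1 was lower. Among all 18390 tested gene models 7.6% were higher and 2.34% lower (limma, Benjamini-Hochberg adjusted p below 0.05). The 10 were the ligands Il1b, Il1f9, Il27 and Il7, the antagonists Il1rn and Il18bp, the decoy receptor Il1r2 and the receptor chains Il2rg, Il3ra and Il9r. Il15ra was lower. In PSC livers 5 of 49 were higher, against 8.25% of all gene models, namely Il1rn, Il1r2, Il1f9, Il7 and Il3ra, and all 5 were also called in PBC. No member was called lower in PSC, where limma gave 2 members lower at an unadjusted p below 0.05, edgeR and DESeq2 1 each after adjustment, and the background of lower calls was 6.48%. Both comparisons use the same 4 control libraries, so they are not independent of each other. Between the models, Il18bp and Il2rg were higher in PBC, 2 of 49 against 1.11% of all gene models. No member was called lower in PBC than in PSC by limma, edgeR or DESeq2, against 1.13% of all gene models by limma, with 1 member lower at an unadjusted p below 0.05 in limma.

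Counting both directions, 11 of 49 members were called in PBC, 5 in PSC and 2 between the models, against 9.94%, 14.7% and 2.24% of all gene models. Without regard to a test, 13 members lay above all controls in every PBC liver and 2 below, against 12.7% and 6.89% of all gene models. In PSC 8 members lay above all controls and 2 below, against 15.9% and 15.6%. Between the models, 14 members were higher in PBC without overlap and 4 lower, against 14.6% and 12.6%. The shares over all gene models move with single samples. Leaving out 1 sample gave 684 (without PBC 9) to 1818 (without PBC 8) gene models higher and 65 to 1574 lower in PBC, against 1398 and 430. For PSC it gave 711 (without PSC 14) to 1915 (without PBC 8) higher and 251 to 1899 lower, against 1518 and 1192. Between the models it gave 59 (without PSC 14) to 261 (without control 3) higher and 42 to 301 lower, against 204 and 208.

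Set side by side by role, 4 of 14 tested ligands and 4 of 31 tested receptor chains were higher in PBC than in controls, against 7.6% of all gene models. Their median log2 fold changes were 0.68 and 0.52, against 0.01 over all gene models. In PSC, 2 of 14 ligands and 2 of 31 receptor chains were higher, against 8.25% of all gene models, with medians of 0.47 and 0.04 against 0.06. These are counts over genes that passed a filter on level, and Il9r passed it only through the PBC livers. Where a call below is said to be lost, it ended under an alternative, such as leaving out 1 sample, scaling all libraries to equal totals, weighting libraries by quality in limma, or fitting only the groups compared. Of the 18390 gene models, quality weights called 2425 higher and 1803 lower in PBC, and 3899 and 3404 in PSC. DESeq2 called 1665 and 913 in PBC, and 1878 and 1929 in PSC. Both called more than the limma fit used here, with 1398 and 430 in PBC and 1518 and 1192 in PSC. A pass with either is to be read beside these counts.

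**Figure D1:**
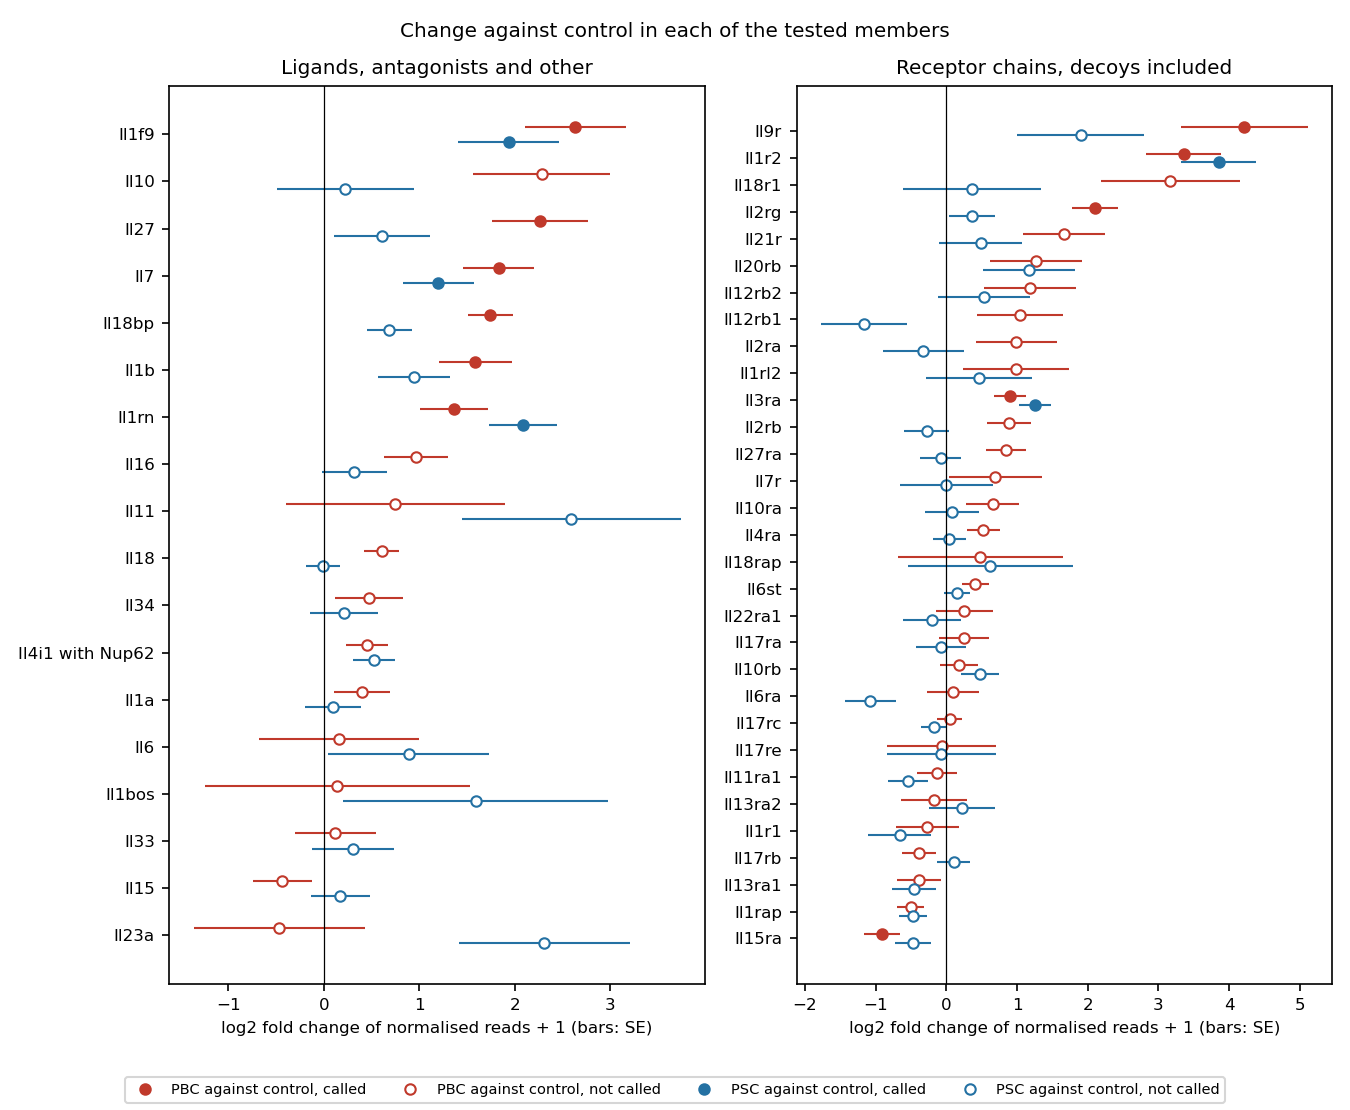
Log2 fold change of normalised reads plus 1 against control (horizontal axis, bars are SE) for each of the 49 tested members, in PBC (red) and PSC (blue), with filled points for those called by limma at adjusted p below 0.05. Il1r2, Il1rn, Il1f9, Il7 and Il3ra are filled in both colours, and Il15ra is the only filled point to the left of 0.

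The agonists of the IL-1 family differed in how they moved. Il1b encodes interleukin-1 beta, the secreted alarm cytokine of monocytes and macrophages that caspase-1 cuts from its precursor (GSMG0023522, chromosome 2, 129364577 to 129371142, in mm10 as are all positions below). Values are given in the order controls 1 to 4, PBC 7, 8 and 9, and PSC 11, 13 and 14. Il1b had 315, 221, 674 and 224 normalised reads in the controls, 632, 1283 and 1109 in PBC and 758, 453 and 690.2 in PSC livers. Control 3 lay above the other controls and above PBC 7, so the PBC and control ranges overlapped. Il1b rose in PBC by 1.59 (SE 0.38, adjusted p = 0.0196), a call that was lost without PBC 9 (adjusted p = 0.089) and with only the compared groups in the fit (0.0546). In PSC its log2 fold change of 0.95 (SE 0.38, adjusted p = 0.11) did not pass, or 1.31 with adjusted p = 0.0146 without control 3, and it passed with quality weights (0.0122). The monocyte and macrophage sum, given above, was higher in every cholangitis liver than in any control, and most of it was Lyz2. Ccr2 had 54.7 in PBC 7 and 71.9 in PBC 9, against 23.1 to 115 in controls. Cx3cr1 had 42.3 and 29.6 in these livers, against 37.2 to 60.9. Both were above all controls in PBC 8 and in PSC, as were the other genes of the list in both models. The part of this sum in the Il1b, Il1rn and Il1f9 values was not tested. Nor was that of the cholangiocyte sum, which was highest in PSC and consisted mostly of Spp1. Il1bos, the antisense transcript that shares 25 exon bases with Il1b, had at most 16.9 normalised reads in any liver. Il1a, the sister ligand that acts from the cell surface or after cell death, had 1272, 1047, 909 and 582 in controls, 910.2, 1667 and 1181 in PBC and 1276, 1003 and 738 in PSC livers. These ranges overlapped, and neither difference from control passed (log2 fold changes 0.41 and 0.10, adjusted p = 0.411 and 0.855).

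Il1f9, now named Il36g, encodes interleukin-36 gamma, a ligand made by epithelia and myeloid cells (GSMG0020767, chromosome 2, 24186476 to 24199214). It had 29.8, 20.5, 35.8 and 12.5 in the controls, 114, 90.8 and 311 in PBC and 131, 45.3 and 125 in PSC livers. PBC 9 was the highest and PSC 13 the lowest of the cholangitis livers, and both groups lay above every control. Il1f9 rose by 2.64 (SE 0.53, adjusted p = 0.00715) in PBC, under every alternative tried, and by 1.94 (SE 0.53, adjusted p = 0.0272) in PSC. The PSC call was lost without control 2, control 4, PSC 11 or PSC 14 (adjusted p = 0.0558, 0.0596, 0.117 and 0.131). The related Il1f6, now Il36a, was too low for the filter and was listed at 0 in all 7 control and PBC livers, but had 16.9, 3.23 and 11.5 normalised reads in PSC livers. Its 27 PSC reads give a pooled level at least 5.23-fold higher than the limit that a count of 0 allows over the control group. That limit is 3 read pairs, or 6 reads, and covers counting error in the controls only. With no filter, limma gave Il1f6 an adjusted p of 0.00491 in PSC against control and 0.0238 in PBC against PSC. Il1f6 was named after its values were seen, and with 7 livers at 0 its own spread came from the PSC livers alone. These p-values are therefore no support for a difference.

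Il18 and Il33 are IL-1 family ligands that are stored in cells without stimulation. Il18, whose product drives interferon gamma production, had 2149, 1490.3, 2016 and 1979.8 in controls, 3004, 2675 and 2989.9 in PBC and 1759.6, 1750.0 and 2161 in PSC livers. Every PBC liver was above every control and every PSC liver. The log2 fold change in PBC was 0.61 (SE 0.18, adjusted p = 0.0511), just beyond the threshold, and that in PSC was -0.01 (SE 0.18, adjusted p = 0.984). In PBC, Il18 passed with DESeq2 (adjusted p = 0.0311), without PBC 8 (0.0353), with the stricter filter (0.0458), with a pseudocount of 5 (0.0489) and with quality weights (0.0359). Il33, a nuclear alarm ligand of endothelial, stellate and epithelial cells, had 89.4, 43.6, 94.5 and 121, then 84.5, 158 and 52.9, then 90.98, 84.1 and 136. The 3 groups overlapped, with log2 fold changes of 0.12 in PBC and 0.31 in PSC (adjusted p = 0.888 and 0.672).

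Of the inhibitors of the family, Il1rn was called higher in both models and Il18bp in PBC. Il1rn encodes the receptor antagonist that occupies the IL-1 receptor without signalling (GSMG0020772, chromosome 2, 24336853 to 24351494). It had 719, 369.7, 899 and 343 in controls, 1084, 2065 and 1181 in PBC and 2516, 1626 and 2924 in PSC livers. All 6 cholangitis livers lay above all 4 controls, and PSC 13, the lowest PSC liver, lay below PBC 8. Il1rn rose by 2.09 (SE 0.36, adjusted p = 0.00233) in PSC under every alternative tried and by 1.37 (SE 0.36, adjusted p = 0.0295) in PBC. The PBC call was lost without control 2 (adjusted p = 0.0614), control 4 (0.0618), PBC 8 (0.0673) or PBC 9 (0.0715), and with quality weights (0.0534), equal totals (0.0687) or only the compared groups in the fit (0.0677). The difference between the models was -0.73 (SE 0.38, adjusted p = 0.323) for PBC against PSC.

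Il18bp encodes the secreted protein that binds and neutralises interleukin-18 and is a known target of interferon gamma (GSMG0036351, chromosome 7, 102015076 to 102018690). Its values were 1066, 634, 989 and 1186 in controls, 2889.6, 3547 and 3104 in PBC and 1897, 1245 and 1492 in PSC livers. The 3 groups did not overlap, with controls lowest and PBC highest. Il18bp rose by 1.75 (SE 0.23, adjusted p = 0.000589) in PBC under every alternative tried. In PSC its log2 fold change was 0.69 (SE 0.23, adjusted p = 0.063), which passed with DESeq2 (adjusted p = 0.0399), with quality weights (0.0295) and without control 4 (0.0497). Il18bp was higher in PBC than in PSC by 1.06 (SE 0.25, adjusted p = 0.0445), a call that was lost without control 1 (adjusted p = 0.0653), without any 1 PBC liver (0.0815, 0.101 and 0.09 for PBC 7, 8 and 9), without any 1 PSC liver (0.0582, 0.204 and 0.182 for PSC 11, 13 and 14) and with equal totals (0.107).

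Among the receptors of the IL-1 family, the decoy moved and the signalling chains did not pass. Il1r2 encodes the decoy receptor, which captures IL-1 beta and lacks a TIR domain (GSMG0000178, chromosome 1, 40084714 to 40125230). It had 11.7, 11.6, 33.2 and 5.55 in controls, 119, 94.00 and 243 in PBC and 176, 141 and 312 in PSC livers. Every cholangitis liver was above every control, with control 3 the highest control and PSC 14 the highest of all. Il1r2 rose by 3.36 (SE 0.53, adjusted p = 0.00179) in PBC and by 3.86 (SE 0.53, adjusted p = 0.000582) in PSC, under every alternative tried. The neutrophil gene sum, given above, was higher in all 6 cholangitis livers than in any control. Most of this sum was S100a8 and S100a9. Csf3r had 62.2 in PBC 7 and 59.8 in PSC 13, against 44.4 to 71.9 in controls. Cxcr2 had 30.7 in PSC 13 against 5.55 to 59.05, and Ly6g 4.93 in PSC 14 against 0 to 5.13. The other genes of the list lay above all controls in every cholangitis liver. The part of neutrophils in the Il1r2 values was not tested.

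Il1r1, the signalling receptor for IL-1, had 598, 670.0, 421 and 254 in controls, 199, 908 and 298 in PBC and 297, 241 and 332 in PSC livers. PBC 8 was the highest of all livers and PBC 7 the lowest, and the groups overlapped (log2 fold changes -0.27 and -0.66, adjusted p = 0.747 and 0.351, the latter 0.0141 with quality weights). Il1rap, the accessory chain shared by the receptors for IL-1, IL-33 and IL-36, had 12013, 8055, 12165 and 8472, then 6764, 7638 and 6784, then 6487, 7964 and 7306. All controls lay above all cholangitis livers, but log2 fold changes of -0.50 (SE 0.19, adjusted p = 0.116) in PBC and -0.47 (SE 0.19, adjusted p = 0.124) in PSC did not pass, except with quality weights (adjusted p = 0.016 and 0.00618) and, in PBC, with DESeq2 (0.0395). Il18r1, the binding chain of the IL-18 receptor on T and NK cells, had 31.1, 7.70, 7.66 and 0, then 49.7, 161 and 29.6, then 4.69, 8.09 and 13.2. PBC 8 was far above the other livers, and 3.17 (SE 0.98, adjusted p = 0.0569) in PBC missed the threshold, but passed without control 1 (adjusted p = 0.0283), with a pseudocount of 5 (0.0319) and with DESeq2 (0.0174). Il1rl1, the IL-33 receptor ST2, was above 0 in 2 libraries only, with at most 2.59 normalised reads.

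**Figure D2:**
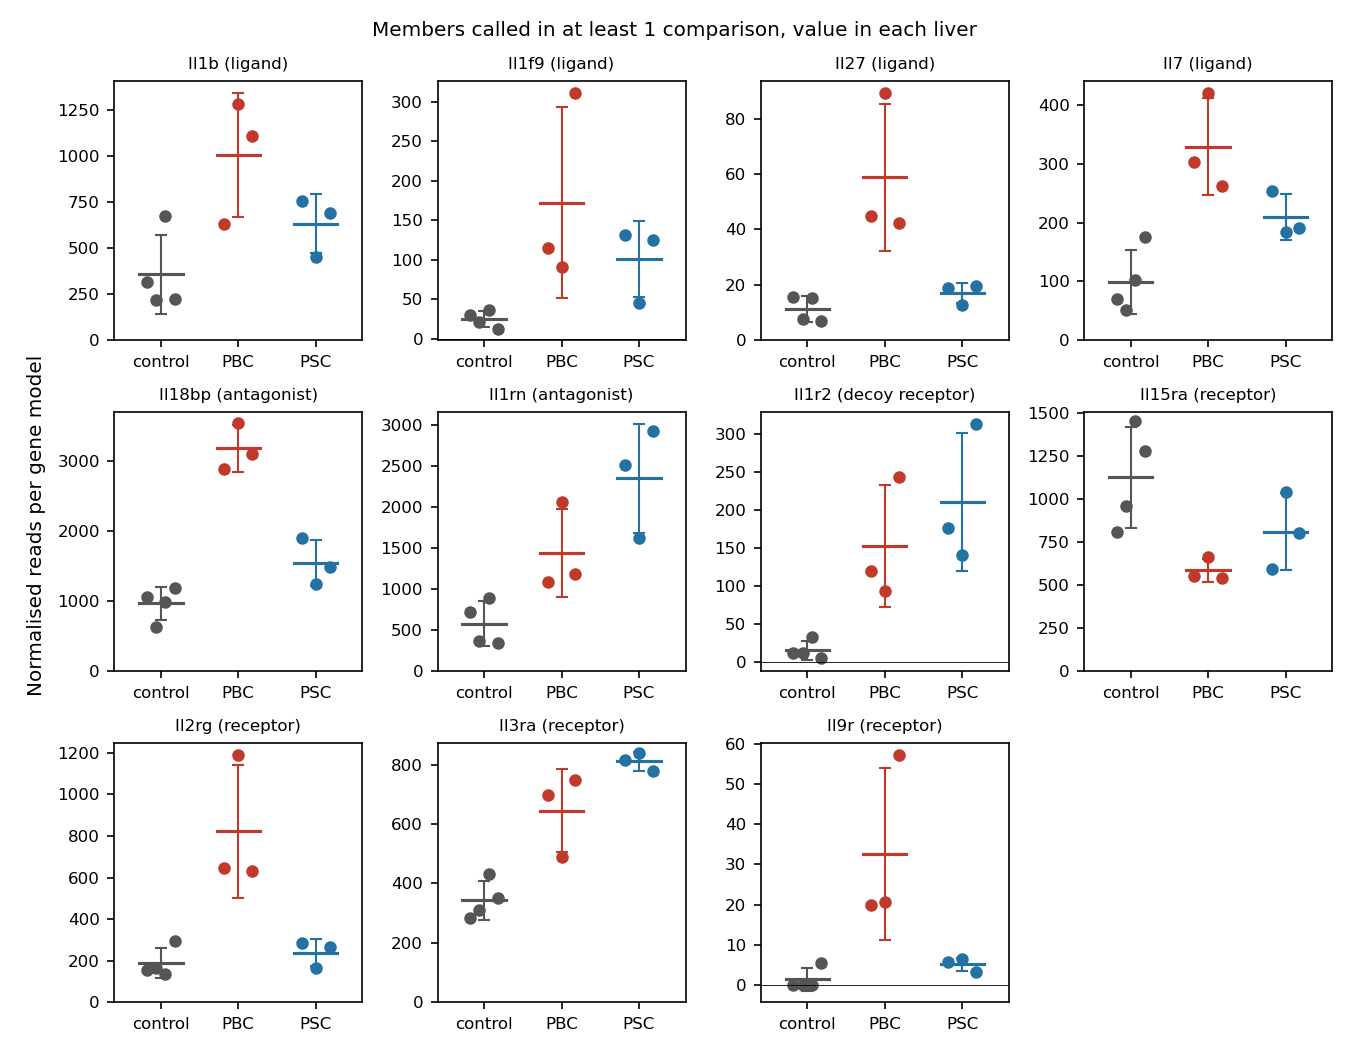
Normalised reads per gene model (vertical axis, with 0 shown) in each liver for the 11 members called in at least 1 comparison, with 1 point per liver, and the mean and SD of each group (n = 4, 3 and 3) as lines and bars. Il18bp, Il27, Il2rg and Il9r are highest in the PBC livers, whereas Il1rn, Il1r2 and Il3ra have their highest mean in PSC.

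Of the common gamma chain family, the shared chain itself rose in PBC. Il2rg encodes that chain, part of the receptors for IL-2, IL-4, IL-7, IL-9, IL-15 and IL-21 (GSMG0042724, chromosome X, 101264383 to 101268255), and another gene model on the same strand, Gm20489, covers 30.5% of its exon bases. It had 158, 167, 138 and 297 in controls, 644, 1190.2 and 631 in PBC and 286, 167 and 266 in PSC livers. The PBC livers lay above all 7 others, which overlapped each other. Il2rg rose by 2.11 (SE 0.33, adjusted p = 0.00152) against control under every alternative tried. It was higher in PBC than in PSC by 1.75 (SE 0.35, adjusted p = 0.0197), lost without PBC 8 (adjusted p = 0.0601), PSC 13 (0.113) or PSC 14 (0.0724) and with equal totals (0.0585). The T, NK and B cell gene sums were likewise above all other livers in PBC, but not every gene followed its sum. Of the NK list, only Nkg7 and Gzmb lay above all other livers in PBC. Klrb1c had 164, 215 and 135 in PBC against 158 to 419 in controls and 303 to 335 in PSC livers. Ms4a1, Blk, Cd79b and Pax5 of the B cell list and Cd4 of the T cell list overlapped the controls. The part of these cells in the Il2rg values was not tested.

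Chains that pair with it in those receptors were called in neither model, apart from Il9r and Il15ra. Il2rb, shared by the IL-2 and IL-15 receptors of T and NK cells, had 118, 107, 105 and 111 in controls, 204, 328 and 127 in PBC and 96.6, 102 and 75.6 in PSC livers. The 3 groups did not overlap, with PBC highest, yet 0.89 (SE 0.32, adjusted p = 0.0927) against control and 1.16 (SE 0.34, adjusted p = 0.101) against PSC did not pass, except without PBC 9 (adjusted p = 0.0433 and 0.0368) and with DESeq2 (0.0385 and 0.0169). Il21r, the IL-21 receptor of B and T cells, had 22.02, 6.42, 40.9 and 22.2, then 37.3, 108 and 61.4, then 23.4, 40.4 and 21.4, and its log2 fold change in PBC was 1.66 (SE 0.58, adjusted p = 0.0874), with adjusted p = 0.0432 by DESeq2. Il7r, the IL-7 receptor chain of lymphocytes, stayed at 4.85 to 27.1 normalised reads in all livers (adjusted p = 0.54 and 0.998). Il4ra, the IL-4 and IL-13 receptor chain, had 608, 480.1, 414 and 568, then 582, 1042 and 656, then 504, 531 and 547, with PBC 8 the highest and adjusted p = 0.175 and 0.924. Its partner Il13ra1 had 2913, 2613, 4682 and 2235, then 1959.6, 4047 and 1500.2, then 2074, 2209 and 2258, with overlapping groups (adjusted p = 0.464 and 0.357).

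Il9r encodes the IL-9 receptor chain of T cells and mast cells (GSMG0006481, chromosome 11, 32188997 to 32200279). It had 0, 0, 0 and 5.55 in controls, 19.9, 20.7 and 57.1 in PBC and 5.63, 6.47 and 3.29 in PSC livers. Only control 4 among the controls had reads, and these were 4. All 3 PBC livers were above all others, and PBC 9 was the highest. Il9r was higher in PBC by 4.22 (SE 0.90, adjusted p = 0.0104), but it passed the filter through the PBC livers alone, and a fold change over so few control reads depends on the pseudocount, at 4.97 with a pseudocount of 0.5 and 2.50 with 5. It was 4.90 without control 4, and the call was lost without PBC 9 (adjusted p = 0.0699). In PSC, 1.90 (SE 0.90, adjusted p = 0.173) did not pass, except with quality weights (adjusted p = 0.014). The 10 genes of mast cells, basophils and eosinophils summed to 12.8 to 54.4 normalised reads in controls, 89.5 to 275 in PBC and 115 to 184 in PSC livers, with Mcpt8, Mcpt4 and Epx at 0 in all controls. Of these, Mcpt4, Tpsb2 and Cma1 had at most 3.29, 5.11 and 12.7 in any liver. Cpa3 had 14.9, 31.9 and 21.2 in PBC and at most 3.29 elsewhere. Prg2 reached 135 in PBC 9, and Siglecf and Ccr3 were highest in PSC. The part of mast cells, basophils, eosinophils and T cells in the Il9r values was not tested.

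Il7 encodes the survival cytokine of lymphocytes, which is made by stromal cells and hepatocytes (GSMG0025147, chromosome 3, 7569992 to 7613761). It had 69.95, 51.3, 102 and 175 in controls, 303, 421 and 262 in PBC and 254, 184 and 191 in PSC livers. Control 4 was the highest control, PSC 13 the lowest of the cholangitis livers, and the 3 groups did not overlap. Il7 rose by 1.84 (SE 0.37, adjusted p = 0.00791) in PBC, under every alternative tried, and by 1.20 (SE 0.37, adjusted p = 0.0453) in PSC. The PSC call was the least stable of the 5. It was lost without control 1, 2 or 3 (adjusted p = 0.111, 0.0997 and 0.0524), without PBC 7 (0.0566), without PSC 11, 13 or 14 (0.156, 0.0935 and 0.121), and with no filter (0.0663), TMM scaling (0.0501), equal totals (0.0837) or edgeR (0.0712).

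IL-15 is presented to NK and memory T cells by its own receptor chain, IL-15R alpha. Il15ra (GSMG0020671, chromosome 2, 11705293 to 11733985) had 807, 960.1, 1454 and 1274 in controls, 552, 663 and 539.6 in PBC and 592, 1037 and 802 in PSC livers. Every PBC liver was below every control, while the PSC livers overlapped both groups. Il15ra fell by 0.91 (SE 0.25, adjusted p = 0.0372) in PBC, a call lost without control 3 (adjusted p = 0.0803), control 4 (0.0761), PBC 7 (0.11), PBC 9 (0.134) or PSC 14 (0.0594), and with only the compared groups (0.0686) or quality weights (0.0645). The ligand Il15 had 457, 226, 636 and 303, then 286, 287 and 262, then 465, 429 and 383. Controls 2 and 3 held the lowest and the highest value of all livers, and neither difference from control passed (adjusted p = 0.398 and 0.742).

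Il3ra encodes the ligand-binding chain of the IL-3 receptor, which pairs with the common beta chain on basophils, plasmacytoid dendritic cells and other myeloid cells (GSMG0011241, chromosome 14, 14346495 to 14355492). It had 282, 309, 432 and 353 in controls, 699, 488 and 749 in PBC and 817, 839 and 777 in PSC livers. The 3 groups did not overlap, with controls lowest and PSC highest. Il3ra rose by 1.25 (SE 0.22, adjusted p = 0.00297) in PSC under every alternative tried and by 0.90 (SE 0.22, adjusted p = 0.0236) in PBC, where the call was lost without control 1 (adjusted p = 0.0695), PBC 7 (0.0875) or PBC 9 (0.112) and with only the compared groups (0.0777). The 7 dendritic cell genes summed to 365 to 687 in controls, 990.3 to 1351 in PBC and 1032 to 1165 in PSC livers, also without overlap between controls and either model. Zbtb46 did not follow this sum, with 141 to 271 in controls, 99.5, 250 and 82.5 in PBC and 115 to 141 in PSC livers. Cd209a had 6.42 to 22.2 in controls, 0, 6.37 and 0 in PBC and 34.7 to 88.7 in PSC livers. The other genes of the list lay above all controls in both models. The part of dendritic cells in the Il3ra values was not tested. Csf2ra, the GM-CSF receptor chain that uses the same beta chain, rose by 1.54 (SE 0.21, adjusted p = 0.000772) in PBC and 1.21 (SE 0.21, adjusted p = 0.00297) in PSC. The ligand Il3 was listed at 0 in every library.

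In the IL-12 family, Il27 encodes the p28 subunit of IL-27, made by activated macrophages and dendritic cells (GSMG0036656, chromosome 7, 126589010 to 126594941). It had 15.5, 7.70, 15.3 and 6.94 in controls, 44.8, 89.2 and 42.3 in PBC and 18.8, 12.9 and 19.7 in PSC livers. The PBC livers lay above all 7 others, with PBC 8 the highest. Il27 rose by 2.27 (SE 0.50, adjusted p = 0.0132) in PBC under every alternative tried, and 1.66 (SE 0.54, adjusted p = 0.132) for PBC against PSC did not pass, except with DESeq2 (adjusted p = 0.0432). The gene Apobr on the opposite strand shares 10.1% of the exon bases of Il27. The 8 Kupffer cell genes summed to 47881 to 78513 in controls, 164657 to 223570 in PBC and 115795 to 148193 in PSC livers. Each of them lay above all controls in PBC. In PSC, Timd4 had 418, 319 and 362 against 415 to 875 in controls. Vsig4, Cd5l and Marco also overlapped the controls in PSC, whereas Clec4f and the C1q genes lay above them. The part of Kupffer cells in the Il27 values was not tested. The receptor chain Il27ra had 102, 87.3, 81.7 and 124, then 209, 209 and 125, then 84.4, 97.05 and 95.3. Each PBC liver was above all others, though 0.85 (SE 0.29, adjusted p = 0.0801) did not pass, except with DESeq2 (adjusted p = 0.0496).

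The other subunits of this family were low. Il12b, the p40 subunit of IL-12 and IL-23, did not reach the filter and had at most 25.5 normalised reads, in PBC 8. Il23a, the p19 subunit of IL-23, had 9.07, 11.6, 5.11 and 2.78 in controls, 9.95, 12.8 and 0 in PBC and 38.5, 58.2 and 19.7 in PSC livers. Each PSC liver was above all others, but 2.31 (SE 0.89, adjusted p = 0.1) against control did not pass, except without PBC 9 (adjusted p = 0.025), with a pseudocount of 5 (0.0336), DESeq2 (0.0166), only the compared groups (0.0216) or quality weights (0.0212). Il12rb1, the receptor chain shared by IL-12 and IL-23, had 12.9, 12.8, 12.8 and 41.6, then 34.8, 55.8 and 25.4, then 13.1, 8.09 and 3.29, with PBC above PSC without overlap and adjusted p = 0.106 for that difference, or 0.0486 with quality weights.

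The IL-6 family showed no call. Il6 was low in every group, with 9.07, 16.7, 33.2 and 1.39 in controls, 19.9, 15.9 and 4.23 in PBC and 15.9, 16.2 and 27.9 in PSC livers. The highest and the lowest value were both in controls (log2 fold changes 0.16 and 0.89, adjusted p = 0.928 and 0.514). Il6ra, the ligand-binding chain on hepatocytes, had 499, 424, 163 and 455, then 296, 540.1 and 336, then 185, 139 and 184. The PSC livers were below all PBC livers and below controls 1, 2 and 4, while control 3 was lower than 2 of them. The log2 fold change of Il6ra in PSC was -1.07 (SE 0.37, adjusted p = 0.0646), and it became -1.44 with adjusted p = 0.00467 without control 3, 0.0467 without PBC 8, 0.0442 with edgeR, 0.00852 with DESeq2 and 0.000304 with quality weights. For PBC against PSC the adjusted p of Il6ra was 0.142, or 0.0373 without control 3 and 0.0464 with DESeq2. Il6st, which encodes the shared signalling chain gp130, had 6504, 6104, 6141 and 8157, then 7781, 11344 and 7903, then 6946, 7578 and 7726 (adjusted p = 0.185 and 0.637).

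Il10, the cytokine that restrains macrophages, had 16.8, 21.8, 76.6 and 20.8 in controls, 74.6, 234 and 154 in PBC and 77.8, 51.8 and 8.22 in PSC livers. Control 3 lay above PBC 7, and the other controls lay below all PBC livers. Its log2 fold change in PBC was 2.28 (SE 0.72, adjusted p = 0.0607), which became 2.76 with adjusted p = 0.0346 without control 3 and also passed without PSC 14 (0.0281), with a pseudocount of 5 (0.0465), DESeq2 (0.0109) or quality weights (0.0319). Of its receptor chains, Il10ra had 110.1, 89.8, 84.3 and 178, then 114, 331 and 139.7, then 134, 112 and 107, and Il10rb had 672, 467, 840.4 and 821, then 607, 1146 and 662, then 1054, 915 and 892. Every PSC liver was above every control for Il10rb. Neither chain passed in either model (adjusted p from 0.247 to 0.906), except Il10rb in PSC with quality weights (0.0308). Il22ra1, the IL-22 receptor chain of hepatocytes and bile duct cells, ran from 52.2 to 158 normalised reads with overlapping groups, and its ligand Il22 was listed at 0 in every library.

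Of the IL-17 family, the ligands IL-17A and IL-17F act through a shared receptor chain on many cell types. Il17a and Il17f were listed at 0 in all 10 libraries, where a count of 0 allows 3 read pairs, or 5.63 to 15.3 normalised reads per library, for counting error only. Il17ra, the shared chain of that receptor, had 188, 223, 138 and 214 in controls, 122, 411 and 224 in PBC and 185, 175 and 174 in PSC livers. PBC 8 was the highest and PBC 7 the lowest, and the groups overlapped (adjusted p = 0.688 and 0.906). Among ligands outside these families, Il34, which binds the CSF-1 receptor of macrophages, had 117, 59.05, 125 and 159.7, then 147, 210.3 and 112, then 113, 116 and 153 (adjusted p = 0.426 and 0.724).

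Levels can be compared between genes only per length. Il11ra1 has a near-identical copy, Il11ra2, so its reads are uncertain. Divided by the exon length of the GENCODE gene, Il11ra1 at 1880.3 ± 1000.0 (SD, n = 4) and Il18 at 1851 ± 279.6 normalised reads per kb were the highest members in control livers and did not differ beyond their spread. Control 3 carried the spread of Il11ra1, at 15049 normalised reads against 5351 to 6827 in the other controls. Il1rap at 896 ± 195, Il13ra1 at 838 ± 292, Il6st at 606 ± 87.4 and Il17rc at 581 ± 62.1 followed. Il1rap and Il13ra1, and Il6st and Il17rc, differed by less than either SD. Il13ra1 and Il6st differed by more than the SD of Il6st but by less than that of Il13ra1. In PBC livers Il18 stood at 2803 ± 180.4 and Il11ra1 at 1571 ± 132 (n = 3). Il18bp followed them in PBC, at 1051 ± 111. In PSC livers Il1rn was at 425 ± 119.9, Il1b at 332 ± 83.99 and Il1r2 at 109.9 ± 47.4 normalised reads per kb. The lymphoid chains Il2ra, Il7r, Il12rb1 and Il12rb2 were all under 10 normalised reads per kb in every group mean.

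**Figure D3:**
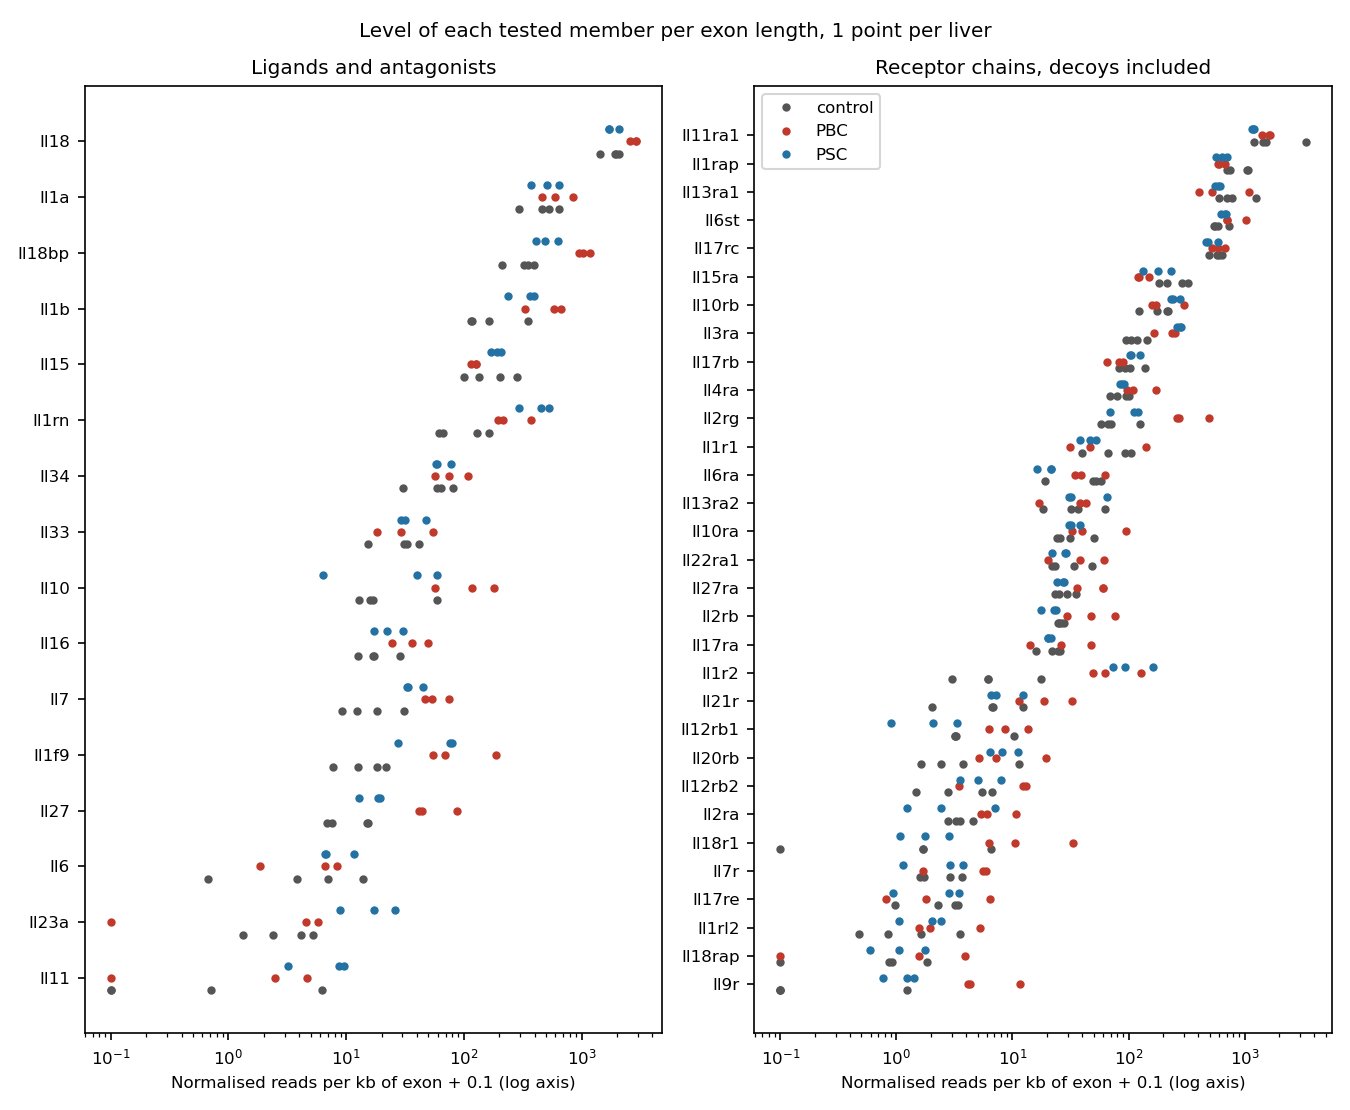
Normalised reads per kb of exon plus 0.1 (horizontal log axis) for the tested ligands and antagonists (left) and receptor chains (right), ordered by the control mean, with 1 point per liver. Il18 and Il11ra1 head their columns, and the points of Il1r2, Il2rg, Il7 and Il27 for PBC lie to the right of the control points.

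The 33 members under the filter comprised 23 ligands, 8 receptor chains, 1 decoy receptor and 1 antagonist. Of these, 14 were listed at 0 in all 10 libraries, 12 of them ligands, including Il13, Il25 and Il31. Il1rapl2 was the receptor chain at 0 throughout. The other 19 had reads in at least 1 library and no value above 25.5. Il2, the growth factor of T cells, had 10 reads over PBC 7 and 8 and was listed at 0 elsewhere. Il4 reached 16.8 in control 1, and its values in the cholangitis livers were 9.95, 0 and 0 in PBC and 3.75, 3.23 and 0 in PSC. Il5ra, the IL-5 receptor chain of eosinophils, was highest in control 3, at 20.4. Il12a, the p35 subunit of IL-12, had 0, 2.57, 2.55 and 0 in controls, 7.46, 9.56 and 14.8 in PBC and 4.69, 0 and 4.93 in PSC livers.

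Genes of the pathways around the interleukins are given from 6 lists, whose counts stand against 7.6% of all gene models higher and 2.34% lower in PBC, 8.25% and 6.48% in PSC, and 1.11% higher in PBC than in PSC. Of 17 genes for Janus kinases, STAT factors and their inhibitors, 7 rose in PBC, 3 rose in PSC and 2 were higher in PBC than in PSC. Socs1, a feedback inhibitor of cytokine receptors, rose by 2.20 (SE 0.31, adjusted p = 0.000789) in PBC and the phosphatase gene Ptpn6 by 1.07 (SE 0.20, adjusted p = 0.00463). In PSC, Socs3, the inhibitor induced by gp130 signals, rose by 1.83 (SE 0.31, adjusted p = 0.0022), Ptpn6 by 0.72 (SE 0.20, adjusted p = 0.0286) and Jak3, the kinase bound to the common gamma chain, by 0.85 (SE 0.25, adjusted p = 0.0364). Socs1 was higher in PBC than in PSC by 1.51 (SE 0.33, adjusted p = 0.032). The median log2 fold changes of this list were 0.26 in PBC and -0.09 in PSC. The PSC calls of Jak3 and Ptpn6 and the Socs1 difference each ended without PSC 11 (adjusted p = 0.133, 0.097 and 0.107), PSC 13 (0.0752, 0.0763 and 0.131) or PSC 14 (0.113, 0.104 and 0.11), and with equal totals (0.0646, 0.0855 and 0.0606). Jak3 lost its call also without control 1, 2 or 3 (0.0635, 0.0534 and 0.0561), Ptpn6 without control 2 (0.0622), and Socs1 without PBC 7 or 8 (0.0979 and 0.0783).

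Downstream of the IL-1 receptor, 1 of 13 genes rose and 1 fell in PBC, and 1 rose and 4 fell in PSC. Irak3, the inhibitory member of the IRAK kinases, rose by 2.33 (SE 0.44, adjusted p = 0.00546) in PBC. Map3k7, the kinase TAK1, fell by 0.99 (SE 0.26, adjusted p = 0.033) in PBC and by 1.42 (SE 0.26, adjusted p = 0.00409) in PSC, while Irak1 fell by 0.85 (SE 0.20, adjusted p = 0.0132) and the inhibitor gene Tollip fell by 1.47 (SE 0.40, adjusted p = 0.0271) in PSC. Irak1 lost its call without PSC 13 (adjusted p = 0.0521) or PSC 14 (0.0868), and Tollip without control 1 or 4 (0.0616 and 0.0609), without PSC 11, 13 or 14 (0.0897, 0.0576 and 0.106) or with equal totals (0.0592). The PBC call of Map3k7 was lost without controls 1 to 4 in turn (adjusted p = 0.0637, 0.058, 0.0543 and 0.0589), PBC 7 (0.137), PBC 9 (0.152) or PSC 14 (0.0517), and with edgeR (0.0707), equal totals (0.0611) or fitting the compared groups alone (0.0836). Of 11 inflammasome genes, 5 rose in PBC and 2 in PSC. Pycard, the adaptor that recruits caspase-1, rose by 1.74 (SE 0.30, adjusted p = 0.00287) in PBC and 1.78 (SE 0.30, adjusted p = 0.00215) in PSC, and in PBC Casp1 rose by 1.14 (SE 0.23, adjusted p = 0.00751) and the sensor gene Nlrp3 rose by 1.66 (SE 0.34, adjusted p = 0.0089). Casp4, which encodes caspase-11, rose in PSC by 1.27 (SE 0.30, adjusted p = 0.0145), lost without PSC 14 (adjusted p = 0.0892).

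Of 17 tested genes for other cytokines and receptor chains of these families, 6 rose in PBC, and 6 rose and 1 fell in PSC. Osm, a gp130 ligand of neutrophils and macrophages, rose by 3.71 (SE 0.55, adjusted p = 0.00105) in PBC, and Csf1r, the receptor of CSF-1 and IL-34, by 1.90 (SE 0.32, adjusted p = 0.00275). Lif, another gp130 ligand, rose by 3.22 (SE 0.61, adjusted p = 0.00446) in PSC, and Crlf2, the TSLP receptor chain that pairs with Il7r, by 0.92 (SE 0.21, adjusted p = 0.0109), lost without PSC 14 (adjusted p = 0.0647). Of 6 tested genes of the IL-17 pathway and its chemokine targets, 3 rose in each model, and these were Cxcl1, Cxcl2 and Cxcl5, ligands of the neutrophil receptor CXCR2. Cxcl5 rose by 3.83 (SE 0.72, adjusted p = 0.00508) in PBC and 4.07 (SE 0.72, adjusted p = 0.00297) in PSC. Cxcl1 rose by 4.17 (SE 0.44, adjusted p = 0.000117) in PBC and 3.18 (SE 0.44, adjusted p = 0.000546) in PSC, and Cxcl2 by 3.16 (SE 0.72, adjusted p = 0.0155) in PBC and 5.14 (SE 0.72, adjusted p = 0.000644) in PSC. The log2 fold change of Cxcl2 became 2.53 without control 2 and 3.79 without control 3 in PBC, and 4.51 and 5.77 in PSC, and its PBC call was lost without PBC 9 (adjusted p = 0.0572) and with only the compared groups (0.0696). The acute phase genes known as IL-6 targets had 17 of 21 called higher in PBC and 15 of 21 in PSC, with medians of 1.46 and 1.51 against 0.01 and 0.06 over all gene models. Lcn2 rose by 6.13 (SE 0.52, adjusted p = 3.16e-05) in PBC and 7.05 (SE 0.52, adjusted p = 3.77e-06) in PSC. Orm2 rose by 5.18 (SE 0.40, adjusted p = 2.07e-05) and Orm3 by 4.07 (SE 0.40, adjusted p = 7.79e-05) in PBC, and in PSC Saa2 rose by 6.25 (SE 0.51, adjusted p = 8.09e-06) and Saa1 by 5.88 (SE 0.48, adjusted p = 8.12e-06), or 6.88 and 6.48 without PSC 13. The Orm genes are near-identical copies, as are Saa1 and Saa2, so reads may have been split between them and their values are uncertain.

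Ratios of an inhibitor to its ligand or signalling receptor within a library do not depend on library size, and 3 were formed after the values were seen. Il1rn to Il1b was 2.28, 1.67, 1.33 and 1.53 in the controls, 1.72, 1.61 and 1.06 in PBC, and 3.32, 3.59 and 4.24 in PSC livers. Each PSC liver was above all others, by a mean of 1.14 against control on the log2 scale. With these numbers of samples a two-sided exact permutation test cannot go below p = 0.0571 against control or 0.1 between the models, so no test result is given for the ratios. Il1r2 to Il1r1 was 0.0195, 0.0172, 0.0788 and 0.0218 in the controls, 0.6, 0.1035 and 0.8156 in PBC, and 0.593, 0.5839 and 0.9406 in PSC livers. All cholangitis livers exceeded all controls, and the models overlapped. Il18bp to Il18 was 0.496, 0.426, 0.491 and 0.599 in the controls, 0.962, 1.326 and 1.038 in PBC, and 1.078, 0.712 and 0.691 in PSC livers. These too lay above all controls in both models.

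**Figure D4:**
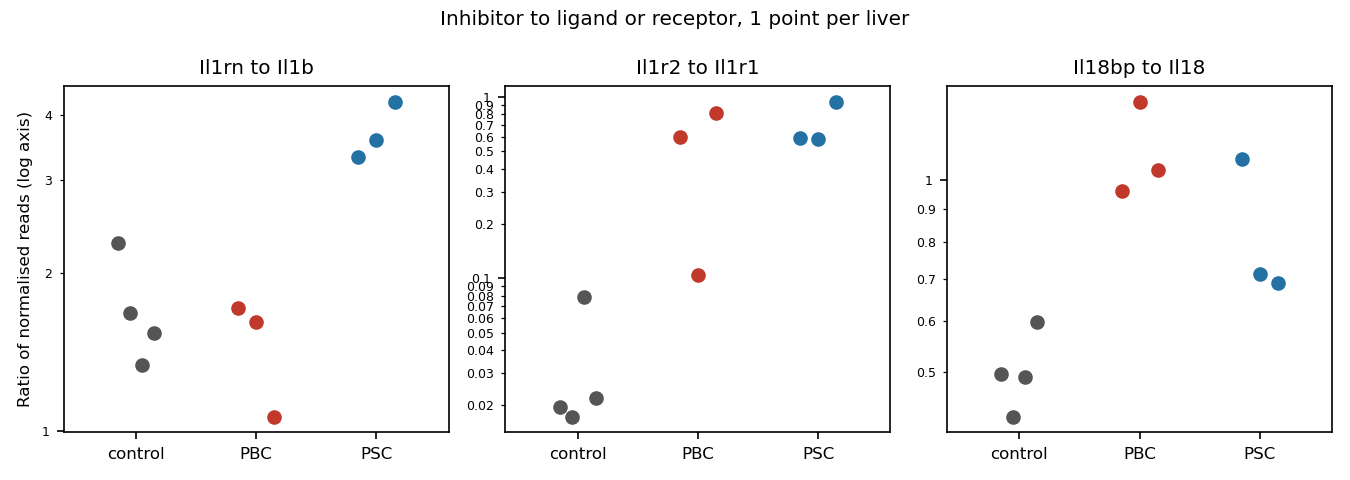
Ratio of normalised reads within each liver (vertical log axis) for Il1rn to Il1b, Il1r2 to Il1r1 and Il18bp to Il18, with 1 point per liver in the 3 groups. The PSC points of Il1rn to Il1b lie between 3.32 and 4.24, above all others, and for the other ratios both models lie above all controls.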

How the data were processed

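Stranded poly(A) libraries of 10 mouse liver samples were sequenced in pairs, per the labels' protocols. The submitters' processing notes name mm10, STAR 2.4.0, Picard, SAMtools, FastQC and DESeq2, and no source used here names the counter or its use of strand. The deposited signal is the authors' read number for each gene model, scaled by DESeq2 size factors. Values of up to 200 reads were whole multiples of 1 step per library (100% of them, tolerance 0.1), which gave the recovered reads. On average 2263 models held 2 reads and 573 held 1, so pairs may have been counted as 2 reads. Limma with an intensity trend was fitted to log2(value + 1) of the 18390 gene models with 10 or more in at least 3 libraries, over all 10 libraries, with Benjamini-Hochberg adjustment at 0.05, and was tested on simulated data. Fold changes on that scale understate the change of low genes. Alternatives were edgeR and DESeq2 on the recovered reads, pseudocounts of 0.5 and 5, no filter, a mean of at least 20, TMM scaling, equal totals, quality weights, fitting only the compared groups and leaving out each library. The labels number the samples of a group without naming animals, so p-values measure only the spread between these samples, which may be technical. Named members are those called in any comparison and 34 set by symbol, with up to 3 called genes for each pathway list and comparison, of which 1 is not reported here. Other members were named after their values were seen. The members and lists were chosen with earlier results of these data known. Exon lengths and overlaps came from GENCODE M21, which matched all 82 members. The tools were limma 3.58.1, DESeq2 1.42.0 and edgeR 4.0.16 in R 4.3.3.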

Additional observations from a re-analysis of the deposited data

Results flagged for a closer look

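In 3 of the 32 tested members that were named by rule, 1 control liver lay apart from the other 3 by Dixon's criterion, which marks about 1 in 20 groups by chance. Il10 had 76.64 normalised reads in control 3, against at most 21.82 in the others. Il12rb1 had 41.65 in control 4, against at most 12.95. Il9r had 5.55 in control 4 and was listed at 0 in the others. Beside such values the criterion marks any value above 0, so the rate of 1 in 20 does not apply to Il9r.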

How the results depend on the processing

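No called member changed direction under the alternatives run. Of the calls, 6 of 11 in PBC, 3 of 5 in PSC and 0 of 2 between the models held under all of them. Members higher in PBC than in control numbered 16 with DESeq2, where 8 receptor chains were higher and 2 members lower. Of the 18390 gene models, DESeq2 called 1665 higher and 913 lower in PBC. With only the compared groups, 0 members were lower in PBC, against 89 of the 18390 gene models, the alternative having fewer samples. In PSC, 12 members were higher and 3 lower with quality weights, 5 each of ligands and receptor chains being higher. Of the 18390 gene models, quality weights called 3899 higher and 3404 lower in PSC. In PSC 1 member was lower with edgeR and with DESeq2, against 1176 and 1929 of the 18390 gene models. In that comparison 1 ligand was higher with TMM scaling, equal totals or edgeR, against 1439, 1249 and 1436 gene models. Between the models, 6 members were higher in PBC with DESeq2 (1 ligand, 4 receptor chains), 4 with quality weights (1 ligand, 2 receptor chains) and 0 with equal totals, with 0 receptor chains. Of the 18390 gene models, 590 were higher in PBC than in PSC with DESeq2 and 658 with quality weights. Between the models, 1 member was lower with no filter, against 228 of 30460 gene models. With quality weights 1 member was lower, against 701 of 18390. The causes were not tested. Leaving out 1 library gave 7 to 11 members higher and 0 to 1 lower in PBC, with 3 to 5 ligands and 3 to 4 receptor chains. In PSC it gave 3 to 6 higher and 0 to 1 lower, with 0 to 3 ligands and 2 receptor chains, and between the models 0 to 3 higher and 0 lower, with 0 ligands and 0 to 2 receptor chains. Equal totals moved the median of all gene models in PBC from 0.005 to -0.119, and the calls between the models from 204 higher and 208 lower to 128 and 228, while single samples moved the calls over all gene models further, as given beside the members' counts. With no filter 68 members and with the stricter filter 40 could be tested. No paired analysis was possible because the groups share no replicate numbers. Members at a few reads per library were limited by depth.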
